A study of Mus musculus with 2 samples.

Results

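The cytosolic ribosome is built from ribosomal RNA and a fixed set of proteins, named Rpl in the large subunit and Rps in the small subunit. Their genes are short, are transcribed in every growing cell, and often carry small nucleolar RNAs (snoRNAs) in their introns. In mammals many of their transcripts start with a C and a run of pyrimidines, the 5' terminal oligopyrimidine tract, through which the cell adjusts their translation to nutrient supply. The genes described here are the 90 mouse protein-coding genes whose symbols are Rpl or Rps with a number, together with Rplp0, Rplp1, Rplp2 and Rpsa. Kinases of the Rps6k group and Rps19bp genes were left out. These are 90 of the 21887 protein-coding genes of the annotation, 56 named for the large and 34 for the small subunit. The symbol rule also takes in 13 paralogs, retrogenes and symbols ending in -ps, such as Rpl3l, Rpl22l1 and Rps27rt.

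The chromatin was that of lymphoid tissue inducer (LTi) cells, innate lymphocytes that help to build Peyer's patches and lymph nodes, in C57BL/6 mice. An antibody to TCF-1, the transcription factor encoded by Tcf7, directed micrococcal nuclease to chromatin, and the released DNA was sequenced (ChIC-seq). There were 2 libraries of 500 sorted cells, 1 per group: Tcf7+/+ cells of Peyer's patches, and Tcf7fl/fl-VavCre cells of the lamina propria of the small intestine. Vav-driven Cre acts in blood cells in general and not in LTi cells alone. The age of the mice, and whether mice were pooled, is not given in the sources used here. Tissue and genotype changed together, so they cannot be told apart.

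The deposited table gives islands, which are stretches of clustered reads. Each island has a count from a library called peak and a count from a library called control. Neither name is tied to a sample, so every value below sets the first library against the second, and none compares genotypes. The 19531 islands held 483771 peak-library and 189291 control-library reads. A fold is the ratio of peak to control reads divided by the library scaling of the deposited fold, 1.997, and its interval is an exact 95% interval for counting error only. Reads copied by PCR are not independent molecules, and there is no replicate of either library. Nuclear islands under 200 reads held at least 7 peak-library reads each, whereas 1112 of them held no control-library read. Regions read mainly in the control library may be missing from the table. This tilts folds above 1 and counts of higher against lower, in every set of islands. Among loci of the sort, Il7r (CD127) had 151 against 50 reads and Ccr6 had 39 against 12. Kit with 99 against 6 reads, Tcf7 with 131 against 27 and Id2 with 113 against 31 were the 3 LTi loci listed that passed the exact test described below as higher. Klrg1 and Ncr1, which encode markers the sort excluded, had no island within 1 kb, and Klrb1c, which encodes NK1.1, had 1 island with 15 against 3 reads. Of 12 loci of B, T, NK and epithelial cells 6 had an island, among them Cd3d with 39 against 7 reads, while Eomes, Tbx21 and Epcam were among those with none. Islands record chromatin and not transcripts, so these values name no cell type.

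Most ribosomal protein genes had an island, and it usually lay over an annotated start. An island was counted for a gene when it overlapped the gene body or the 1 kb on either side by at least 1 bp. By this rule 77 of the 90 genes had an island (85.6%), against 47.5% of all protein-coding genes. The ribosomal protein genes are short, with a median length of 3170 bp against 17169 bp for all protein-coding genes. Among the 10796 protein-coding genes no longer than the longest ribosomal protein gene, 37.7% had an island. Without the 13 paralogs and retrogenes, 71 of 77 core genes had an island (92.2%). Most had a single one: 67 genes had 1 island and 10 genes had 2.

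The promoters of 6 genes are shown first, because an island covers each of them and these genes had the lowest exact p among the named genes with a covered start. Each run is 80 bases before and 20 bases after the annotated start (RefSeq, mm10), on the gene's own strand, with the bases from the start onward in capitals.
Rpsa, chr9:120127686-120127785, plus strand: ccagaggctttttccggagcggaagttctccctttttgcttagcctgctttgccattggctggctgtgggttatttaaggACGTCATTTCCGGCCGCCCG
Rpl36al, chr12:69184048-69184147, minus strand: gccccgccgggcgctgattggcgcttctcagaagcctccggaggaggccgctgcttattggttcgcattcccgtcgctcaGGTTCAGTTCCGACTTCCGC
Rps12, chr10:23787190-23787289, minus strand: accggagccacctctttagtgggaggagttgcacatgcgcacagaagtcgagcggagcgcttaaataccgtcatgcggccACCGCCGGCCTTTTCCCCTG
Rps27l, chr9:66946006-66946105, plus strand: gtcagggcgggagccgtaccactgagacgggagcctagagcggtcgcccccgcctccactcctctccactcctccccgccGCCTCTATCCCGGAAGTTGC
Rpl22l1, chr3:28805428-28805527, plus strand: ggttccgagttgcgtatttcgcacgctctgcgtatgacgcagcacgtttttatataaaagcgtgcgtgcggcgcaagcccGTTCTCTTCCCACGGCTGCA
Rpl38, chr11:114668500-114668599, plus strand: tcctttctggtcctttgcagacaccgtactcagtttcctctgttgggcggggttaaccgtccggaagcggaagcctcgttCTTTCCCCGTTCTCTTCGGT

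Annotated starts, with their strand, were at hand for 69 of the 90 genes. Some genes have several, and a gene counted as covered when an island lay over any of them. Some covered starts lie inside the gene, as at Rps27l and Rpl38, printed above, and at Rpl18 and Rpl19. An island covered a start of 55 of these 69 genes (79.7%), against 6629 of 17492 protein-coding genes (37.9%). Of the 65 islands at these genes 55 covered a start (84.6%), whereas 40.1% of the 15105 islands within 1 kb of any protein-coding gene did so. The midpoints of the 55 islands lay from -869.5 to 1167.5 bp relative to the start, where negative values are upstream, with a median of -164.5 bp. For the other 21 genes, which had no entry with a strand, 20 had an island and in 18 it covered one end of the gene. None of the 14 starts without a covering island belonged to a core gene with an island elsewhere. They were the starts of Rpl5, Rpl23, Rpl39, Rps4x, Rps23 and Rps24, of 6 paralogs or retrogenes without any island, and of Rpl3l and Rpl39l. The island of Rpl39l lay inside the gene. That of Rpl3l covered the downstream end, reached past it and also lay in the window of Msrb1.

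**Figure D1:**
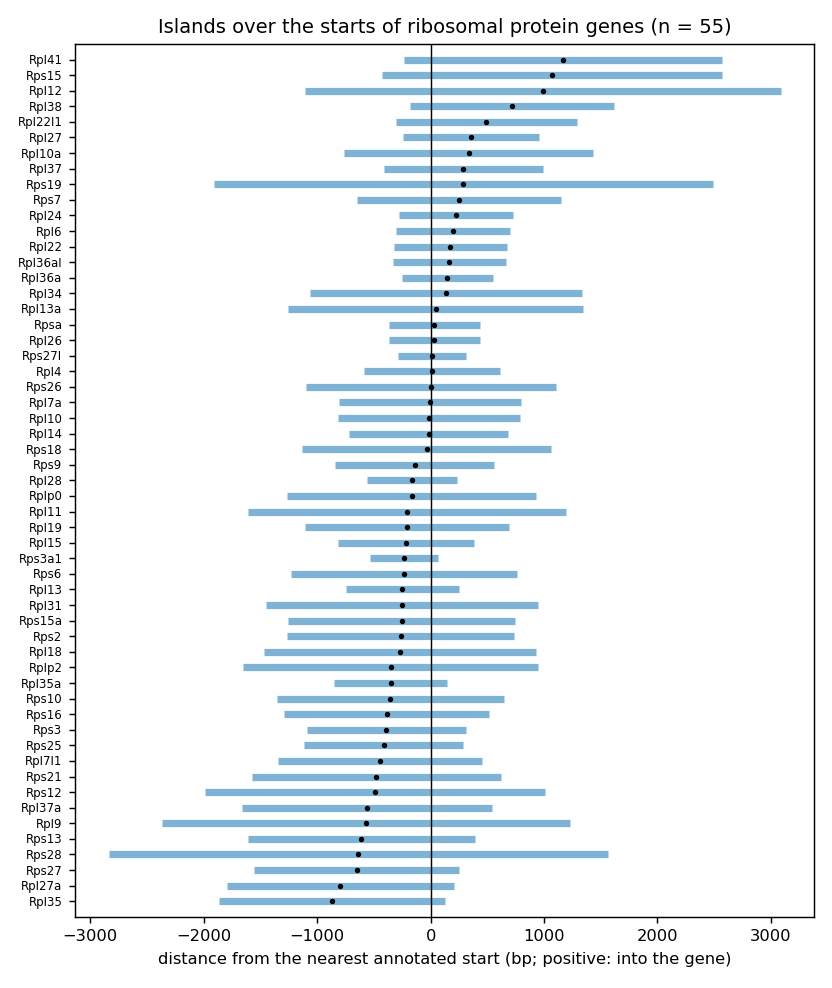
Extent of each island that covers an annotated start of a ribosomal protein gene (n = 55), by distance in bp from the nearest annotated start, with positive values inside the gene. Blue bars are islands and black points their midpoints, which lie from -869.5 bp (Rpl35) to 1167.5 bp (Rpl41).

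Core genes without an island were few and included genes with known roles outside the ribosome. Rpl5, Rpl11 and Rpl23 encode proteins that bind MDM2 when ribosome assembly is disturbed. Of these, Rpl11 had an island with 42 against 11 reads, and Rpl5 and Rpl23 had none. The nearest island lay 17796 bp from Rpl5 and 10126 bp from Rpl23. On the X chromosome, Rpl10 had 20 against 11 reads and Rpl36a had 13 against 3. Rpl39 and Rps4x, also X-linked, had no island, and the nearest lay 23779 and 27341 bp away. Rps23 had its nearest island at 4669 bp, with 10 against 2 reads. The nearest island in the table lay 880841 bp from Rps24 and 774800 bp from Rpl10l, and it was not determined whether the table is complete around them. The 7 paralogs and retrogenes without an island were Rpl10l, Rpl32l, Rpl37rt, Rps27rt, Rps23rg1, Rpl34-ps1 and Rpl31-ps12. With 10 kb on either side, 80 of the 90 genes had an island.

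Although present at most of these genes, the islands were only slightly richer in peak-library reads than in scaled control reads. The 86 distinct islands held 2210 peak-library and 853 control-library reads, a pooled fold of 1.30 (95% interval 1.20 to 1.41). The same measure was 1.62 (1.61 to 1.63) over 19513 nuclear islands, those of 200 or more peak-library reads being left out. It was 1.41 (1.40 to 1.43) over the 5990 of these that cover the start of another protein-coding gene. Before scaling these are 2.59, 3.24 and 2.83 peak-library reads per control-library read. The order of these ratios does not depend on the scaling, whereas the side of 1 does: with the totals of the table set equal, the pooled fold of the ribosomal protein genes was 1.01 (0.936 to 1.10). No test of the difference between the sets was made.

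The low fold went with many control-library reads. The islands of ribosomal protein genes had a median of 25 peak-library reads, with quartiles of 17.3 and 31, and of 9 control-library reads, with quartiles of 5 and 13. Other islands over a protein-coding start had medians of 22 and 7 reads, and nuclear islands over no such start had medians of 14 and 4. At least 10 control-library reads were found in 41 of the 86 islands (47.7%), against 36.2% of the other start islands and 19.1% of all nuclear islands under 200 reads. None of the 86 islands was without control reads, as were 1.35% of the other start islands and 5.70% of nuclear islands under 200 reads. The median width was 1800 bp, against 1600 bp for other start islands. The median density was 14 peak-library and 5 control-library reads per kb, close to the 13.3 and 4.44 of other start islands. The part of island position and of control reads in the fold was not tested.

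**Figure D2:**
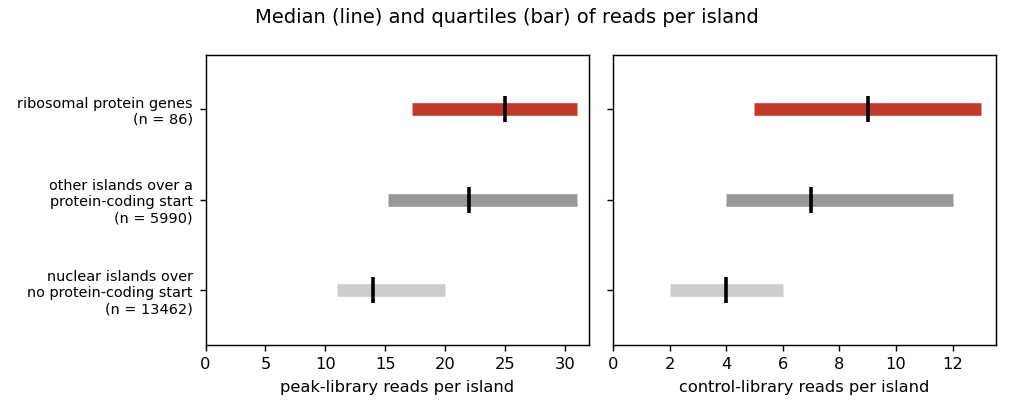
Median (black line) and quartiles (bar) of peak-library reads (left) and control-library reads (right) per island, for the 86 islands of ribosomal protein genes, 5990 other islands over a protein-coding start and 13462 nuclear islands over no such start. The ribosomal protein genes have the highest median in both libraries, 25 and 9 reads.

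By the caller's own threshold, a deposited FDR of 0.05 or less with a fold above 1, 39 of the 86 islands passed (45.3%). The same threshold passed 62.5% of all islands in the authors' deposited table, and 52.4% of the other start islands. On the level of genes, 38 of the 90 ribosomal protein genes had a passing island (42.2%), against 31.6% of all protein-coding genes. The share was 21.6% of those no longer than the longest ribosomal protein gene. Among genes with an island the order was the other way: 38 of 77 ribosomal protein genes had a passing one, against 6921 of 10395 protein-coding genes. Among those no longer than the longest ribosomal protein gene it was 2334 of 4066, which is nearer to the ribosomal protein genes. A fold below 1 was found for 17 of the 86 islands (19.8%), against 10.1% of nuclear islands under 200 reads and 14.6% of other start islands. The caller takes the control count as known. A two-sided exact binomial test that treats both counts as sampled, adjusted by Benjamini-Hochberg over all 19531 islands, passed 0 of the 86 in either direction. Over the whole table it passed 0.302% of islands as higher and 0.0717% as lower in the peak library. At an unadjusted exact p under 0.05, 11 of the 86 islands were higher (12.8%) and 0 lower. The same held for 13.1% of the other start islands and 18.3% of nuclear islands under 200 reads, so the share was near that of other starts. These tests compare the reads of 2 libraries and not the conditions. Since every island has peak-library reads but not every one has control reads, higher calls are favoured over lower ones.

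Reads summed over the islands of each gene gave the same count. No ribosomal protein gene passed the exact test adjusted over the 10395 protein-coding genes with an island, where 6.67% passed as higher and 0.0481% as lower. At an unadjusted exact p under 0.05, 11 of 77 genes were higher (14.3%) and 0 lower, against 23.4% of all genes with an island that were higher. Among the 4066 genes with an island and no longer than the longest ribosomal protein gene the share was 15.5%, close to the 14.3%, and 2.36% passed the adjusted test as higher. The fold per gene ran from 0.612 at Rpl35a to 9.52 at Rpsa, with a median of 1.28 and quartiles of 1.04 and 2.06. For all genes with control reads the median was 1.60, with quartiles of 1.21 and 2.27. Below 1 lay 14 of the 77 genes (18.2%), against 10.8% of all genes with an island and 13.9% of those within the same length. The peak-library reads per gene ran from 9 to 85 with a median of 26, and the control-library reads from 1 to 39 with a median of 11.

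**Figure D3:**
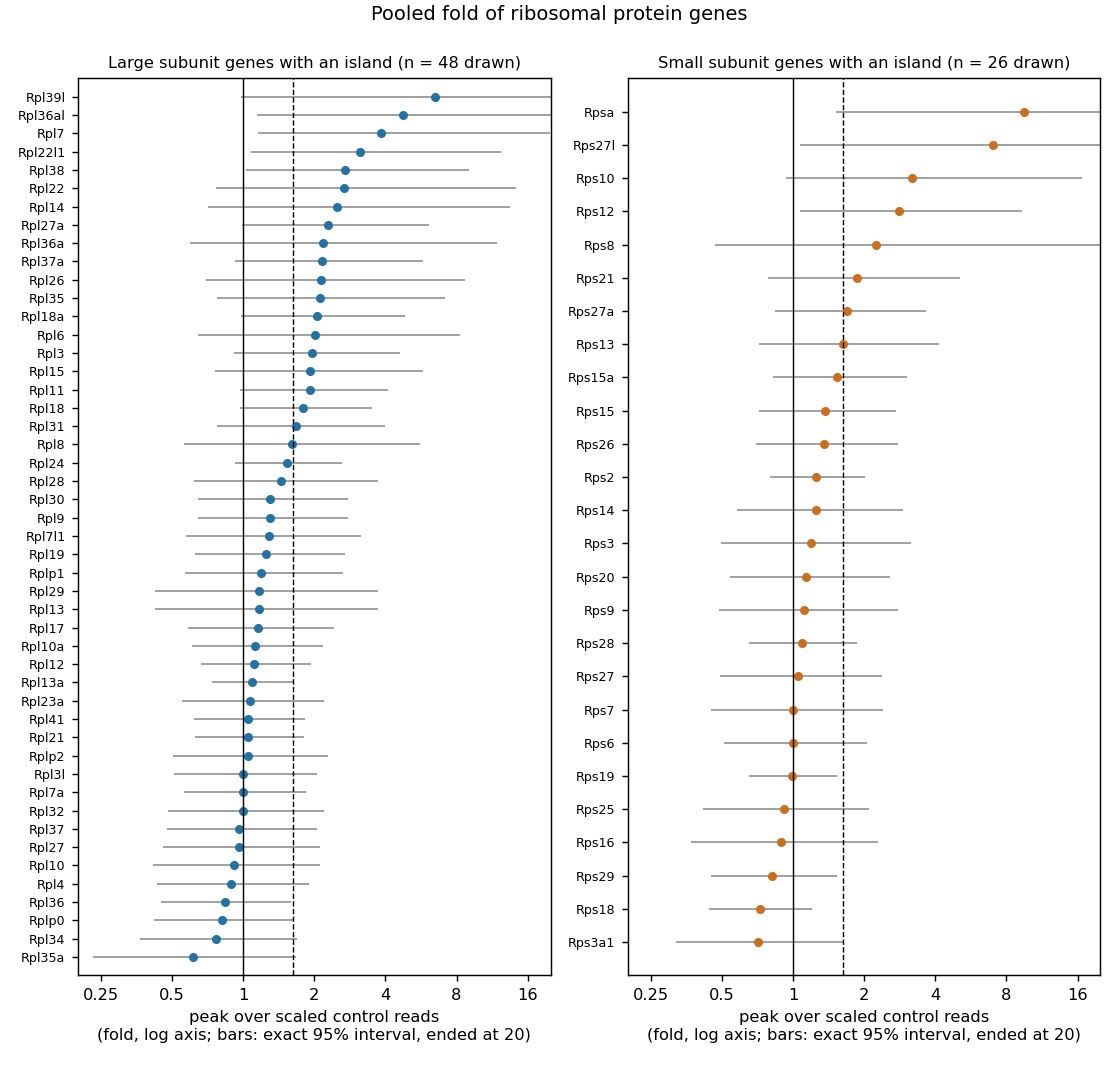
Peak over scaled control reads of ribosomal protein genes with an island, on a log axis, for 48 large and 26 of 29 small subunit genes. Points are pooled folds, bars exact 95% intervals ended at 20, the solid line marks 1 and the dashed line 1.62, the pooled fold of nuclear islands under 200 reads; intervals of most genes span 1, and Rpsa is highest at 9.52.

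Among small subunit genes the highest fold was that of Rpsa, which encodes a small subunit protein also known as the laminin receptor. Its single island, at chr9:120127401-120128200 and over the start, held 19 peak-library reads and 1 control-library read. That is a fold of 9.52 (1.51 to 395), with an exact p of 0.00704 and an adjusted p of 0.0758 over genes. Control counts this low leave the upper limit almost open. Rps12 had 28 against 5 reads in an island over its start, a fold of 2.80 (1.07 to 9.30).

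The other end of the small subunit was formed by Rps3a1, Rps18 and Rps29. Rps3a1 had 17 against 12 reads. Rps18 had 42 against 29 reads in 2 islands, which is 0.725-fold (0.441 to 1.21). The one over its start, at chr17:33954601-33956800, held 28 against 20 reads. Rps29 had 31 against 19 reads at chr12:69157801-69160200, a fold of 0.817 (0.447 to 1.53). None of these intervals excludes 1. Rps6, the small subunit protein that S6 kinases phosphorylate, had 28 against 14 reads (1.00, 0.510 to 2.06). Rps3, whose product has a second role as a partner of NF-kB, had 19 against 8 reads (1.19, 0.497 to 3.14).

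Rps19, the gene most often mutated in Diamond-Blackfan anaemia, carried the island with the most reads of all 86. It spanned 4400 bp over the start, at chr7:24883001-24887400, holding 59 against 33 reads (0.895, 0.575 to 1.42). A further island of 10 against 2 reads brought the gene to 0.987 (0.648 to 1.53). Rps28, in the same disease list, had an island as wide, with 50 against 23 reads (1.09, 0.652 to 1.87), which also touched the windows of Kank3 and Ndufa7. Of the 18 genes listed for this anaemia 16 had an island and 9 a passing one, and the pooled fold was 1.29 (1.09 to 1.54). The 2 without an island were Rpl5 and Rps24.

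In the large subunit the highest folds belonged to paralogs and to a few core genes with low control counts. Rpl7 had 23 against 3 reads at chr1:16103201-16105000, a fold of 3.84 (1.16 to 19.97), in an island that also lies within 1 kb of Rdh10. Rpl38, whose product affects the translation of Hox transcripts in the embryo, had 27 against 5 reads (2.70, 1.03 to 8.99). Rpl27a had 32 against 7 reads (2.29, 0.993 to 6.15), and its island is shared with the window of Trim66. Rpl37a had 30 against 7 reads and Rpl35 had 21 against 5. Their folds were 2.15 (0.924 to 5.79) and 2.10 (0.772 to 7.14). The exact adjusted p of these 5 genes lay between 0.132 and 0.384.

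Rpl21 had the widest island, 4600 bp at chr5:146829201-146833800 with 48 against 23 reads (1.05-fold), and Rpl4 one of the lowest, with 23 against 13 (0.886).

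The genes of the acidic stalk, the part of the large subunit that recruits elongation factors, all had an island and none that passed. Rplp0 had 26 against 16 reads, a fold of 0.814 (0.420 to 1.62). Rplp1 had 26 against 11 reads (1.18, 0.565 to 2.65) and Rplp2 had 25 against 12 (1.04, 0.505 to 2.28). Together the 3 genes stood at 0.989 (0.664 to 1.49). Low folds were also found at Rpl34, with 20 against 13 reads (0.770, 0.365 to 1.69), and at Rpl36, with 30 against 18 reads in 2 islands (0.835, 0.450 to 1.59). The 2 islands of Rpl36 differed: the one at its lower coordinate end had 17 against 15 reads, and the other, also within 1 kb of Lonp1, had 13 against 3.

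Paralogs differed in whether they had an island at all. Rpl22, which binds RNA and is needed for the development of αβ T cells, had 16 against 3 reads over an annotated start inside the gene (2.67, 0.765 to 14.3). Its paralog Rpl22l1 had 25 against 4 reads over its start (3.13, 1.08 to 12.4). Rps27l, a p53 target, had 14 against 1 reads (7.01, 1.07 to 296), whereas Rps27 itself had 23 against 11. Rpl36al had 19 against 2 reads (4.76, 1.15 to 42.1) in an island shared with the window of Mgat2. Rpl39l had 13 against 1 reads (6.51, 0.978 to 277) away from its start. Rpl3l, with 28 against 14 reads, and Rpl7l1, with 23 against 9, had lower folds of 1.00 and 1.28 and held most of the control-library reads of the paralogs. Of the 13 paralogs, retrogenes and -ps symbols 6 had an island, with a pooled fold of 1.97 (1.32 to 3.03) from 122 against 31 reads. Without them the core genes stood at 1.27 (1.17 to 1.38). Reads of near-identical gene copies may be placed on any of them, and how such reads were handled is not given in the sources used here. Of 324 ribosomal protein pseudogenes in the annotation 2 overlapped an island (0.617%), against 1.60% of 10105 other pseudogenes. The former are shorter, with a median length of 533 bp against 943 bp.

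Both subunits were close to each other. Large subunit genes had a pooled fold of 1.32 (1.19 to 1.46), with islands at 48 of 56 genes and passing islands at 23. Small subunit genes had 1.26 (1.11 to 1.43), with islands at 29 of 34 and passing islands at 15. Rpl13a, known for silencing inflammatory transcripts, had the most peak-library reads of any of the genes. It held 85 against 39 in 2 islands (1.09, 0.739 to 1.64). Rps2 had 70 against 28 reads (1.25, 0.797 to 2.02) and Rpl24 had 64 against 21 (1.53, 0.920 to 2.63), each in 2 islands. Rps15a, Rpl18 and Rpl19, also with 2 islands each, had 43 against 14, 50 against 14 and 30 against 12 reads. Rps27a, which encodes ubiquitin fused to a ribosomal protein, had 37 against 11 reads (1.68, 0.841 to 3.66).

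Some of these islands lay near a neighbouring gene or held a snoRNA, and the same shares over all islands were not determined. Of the 86 islands 33 also lay in the window of another protein-coding gene, and these had a pooled fold of 1.19 (1.05 to 1.34). The 53 islands in the window of a single gene stood at 1.39 (1.25 to 1.55). By the annotation, 30 of the 90 genes hold a snoRNA, and 27 of them had an island and 10 a passing one. Their pooled fold was 1.24 (1.09 to 1.42). Of the 60 genes without a snoRNA 50 had an island and 28 a passing one, with a pooled fold of 1.33 (1.20 to 1.48). Those 60 include all 13 paralogs and retrogenes. Without these 13, 44 of 47 had an island and 24 a passing one, and the pooled fold was 1.29 (1.16 to 1.44). The snoRNA itself lay in 11 of the islands, such as Snora65 at Rpl12, with 49 against 22 reads, and Snord43 at Rpl3, with 35 against 9.

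The letters of the promoters were searched from 250 bases before to 50 bases after each annotated start, on both strands, over 81 promoters of 69 ribosomal protein genes and 21263 promoters of all protein-coding genes. The letters CTTTGA, the core that TCF and LEF factors are known to bind, stood in 4 of the 81 promoters (4.94%). They stood in 14.4% of all protein-coding promoters and in 11.5% of those that an island covers. The longer CTTTGAA, which contains them, stood in 1 ribosomal protein promoter, and CTTTGAT in none, against 4.54% and 3.22% of all promoters. A match is only a description of the sequence. All 4 matches are shown, each as the stretch around the letters on the gene's own strand, where the reverse complement TCAAAG is in capitals; the first 2 promoters are covered by an island and the last 2 are not.
Rps3a1, chr3:86142899-86142918, minus strand: atTCAAAGcccatggtctag
Rpl6, chr5:121204301-121204330, plus strand: gagtcgcaaggcTCAAAGtctgttcatcat
Rpl10l, chr12:66284576-66284605, minus strand: caaagcttaaggTCAAAGttccaaattcgg
Rpl39, chrX:37085403-37085432, minus strand: cttggttacttcTCAAAGgccacctaccat

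At the 2 covered promoters the islands held 17 against 12 reads (Rps3a1, fold 0.709, 0.319 to 1.63) and 16 against 4 reads (Rpl6, fold 2.00, 0.646 to 8.23). The 6 genes with the lowest exact p whose promoters are printed above have none of these letters between 250 bases before and 50 bases after the start.

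A start with a C followed by at least 4 pyrimidines, the form of the terminal oligopyrimidine tract, was annotated for 15 of the 81 promoters (18.5%), against 2.21% of all protein-coding promoters. Since annotated starts can be off by some bases, such a run was also sought from 10 bases before to 15 after the start, where 54.3% and 31.1% had one. Shown are the genes picked by the naming rule given below that have an island and the run at the start itself. Each stretch goes from 10 bases before to 20 bases after the start, with the pyrimidines from the start onward in capitals.
Rpl35, chr2:39005112-39005141, minus strand: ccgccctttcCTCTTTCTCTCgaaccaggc
Rps6, chr4:86857348-86857377, minus strand: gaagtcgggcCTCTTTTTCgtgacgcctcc
Rps15a, chr7:118116128-118116157, minus strand: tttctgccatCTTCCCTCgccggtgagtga
Rplp2, chr7:141447641-141447670, plus strand: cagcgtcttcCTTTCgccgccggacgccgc
Rpl38, chr11:114668570-114668599, plus strand: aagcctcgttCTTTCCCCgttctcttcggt
Rps18, chr17:33955646-33955675, minus strand: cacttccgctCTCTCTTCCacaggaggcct

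An island covered the start of all 6 of these genes, which were shown only if they had an island. Rpl32l and Rps27rt, which also have the run, had none. Of the 15 genes with the run at the start 13 were covered (86.7%), and of the 54 without it 42 were (77.8%), against 41.8% and 37.8% over all protein-coding genes. Other letters stood in these promoters more often than in all promoters. The letters CCGGAAG, known from ETS factors, stood in 27 of 81 promoters (33.3%), against 11.6% of all and 22.1% of those covered by an island. An island covered 24 of the 26 genes with them (92.3%) and 31 of the 43 without (72.1%). Over all protein-coding genes these shares were 70.7% and 33.0%, a wider gap. The letters AAGATGGC, known from YY1, stood in 8 of the 81 (9.88%), against 3.05% of all and 5.71% of covered promoters. TATAAA, in contrast, stood in 11.1% against 12.6% of all, but in 5.94% of covered promoters. The GC content had a median of 57.7%, against 56.3% for all and 61.7% for covered protein-coding promoters.

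Other genes of the translation machinery also had islands at most of their loci. Of 78 genes for mitochondrial ribosomal proteins, which build the ribosome of the mitochondrion from nuclear genes, 65 had an island (83.3%) and 36 a passing one. Together they stood at 1.31 (1.19 to 1.44), and the cytosolic set at 1.30. Among those with at least 20 peak-library reads, a floor kept for every list here, the highest folds were at Mrpl4 with 33 against 6 reads (2.75, 1.14 to 8.04), and Mrpl50 and Mrpl18 at 2.50 each. In a list of 32 initiation factor genes, which also takes in Pabpc1 and Tpt1, 29 had an island and 22 a passing one. Their pooled fold was 1.53 (1.36 to 1.73). With the same floor the highest folds were those of Eif3e with 21 against 1 reads, Eif4h with 22 against 2 and Eif2s3x with 26 against 4. In this list 2 genes, Eif3e and Eif4g2 (77 against 17 reads), passed the exact test as higher. That is 6.90% of the 29 with an island, near the 6.67% of all protein-coding genes with an island. In a list of elongation factor genes, which also takes in Eef1e1, all 7 had an island and 3 a passing one, Eef1e1 among them. Their pooled fold was 1.47 (1.12 to 1.94). Highest with this floor, Eef1b2 had 30 against 6 reads, Eef1a1 had 37 against 11 and Eef1d had 28 against 11. Of 27 ribosome assembly genes 25 had an island and 14 a passing one, with 1.43 (1.22 to 1.69). With the same floor the highest were Bop1 with 24 against 5 reads, Polr1c with 34 against 8, and Ubtf, which encodes a factor of ribosomal DNA transcription, with 46 against 11. Fau and Rack1, which encode ribosomal proteins under other names, had 39 against 18 and 22 against 6 reads.

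**Figure D4:**
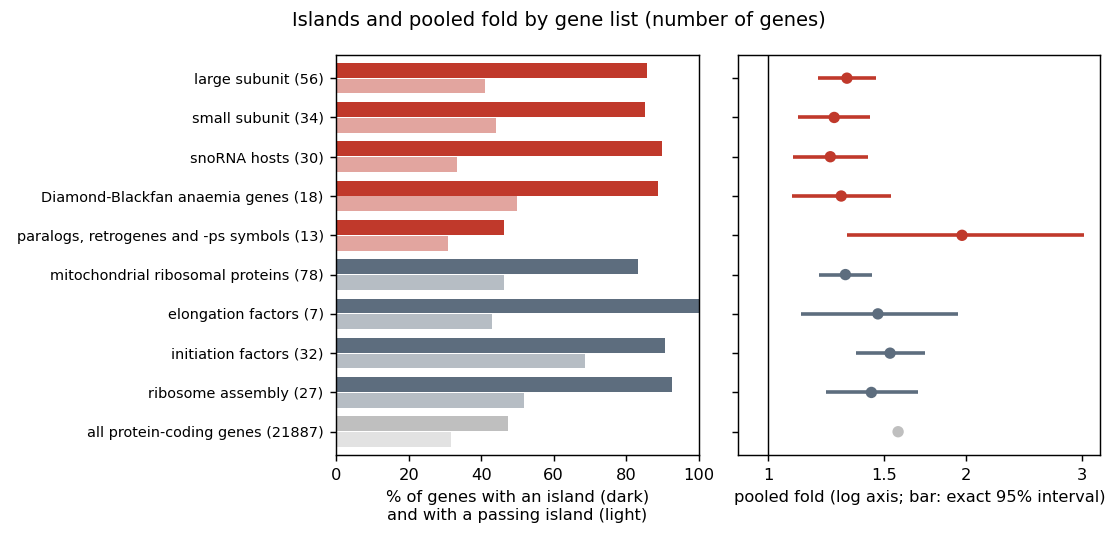
Left, percent of genes with an island (dark bars) and with an island at a deposited FDR of 0.05 or less and fold above 1 (light bars); right, pooled fold with its exact 95% interval on a log axis, by gene list with the number of genes. Red marks sets of ribosomal protein genes, dark grey other translation genes and light grey all protein-coding genes; large and small subunit genes have islands at over 85% of genes and pooled folds of 1.32 and 1.26.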

How the data were processed

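ChIC-seq with an anti-TCF-1 antibody was done on 500 fixed cells per sample, 1 sample per group. Reads were processed with Bowtie2 2.4.2 and SICER 2.0 on mm10, per the submitters' processing notes; window, gap, duplicate and multi-mapping settings: not given in the sources used here. The deposited read counts are whole, unscaled reads for each island in 2 libraries, peak and control, and these 2 columns name no sample. The deposited fold is the authors' ratio between peak reads and scaled control reads, and the p-value and FDR per island were deposited by the authors too.

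Islands were joined to the RefSeq gene table (GRCm38.p6, the mm10 build) by at least 1 bp within the gene plus 1 kb; starts and strands came from the RefSeq promoter table, which matched 69 of 90 genes. Exon positions were not used. Coordinates count from 1. Pooled folds leave out islands of 200 or more peak-library reads and have Clopper-Pearson 95% intervals. Exact binomial tests (SciPy 1.17.1) ran across all islands and all genes with Benjamini-Hochberg adjustment. On simulated reads for 19528 islands the test recovered 198 of 200 islands changed 8-fold and passed 5 unchanged ones. The change multiplied the peak-library reads, so changed islands held far more reads than those of ribosomal protein genes, with medians of 25 and 9. The recovery at such counts and at smaller folds was not tested.

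Named genes were the 10 lowest exact p, the 8 highest and 5 lowest folds at 20 or more peak-library reads, the 5 with most islands and most reads (ties included) and 13 genes named in every case. Some genes that this rule names are not reported here; counts and pooled values include them. Rps3a1, Rpl35a and the genes named only with reads beside a list, a neighbour, a snoRNA or the X chromosome were chosen after their values were seen. The genes and lists were chosen with earlier results of these data known.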

Additional observations from a re-analysis of the deposited data

How the results depend on the processing

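The number of ribosomal protein genes with an island was 51 of 90 when islands in the window of another protein-coding gene were left out. Under the other 6 alternatives (gene body alone, 5 or 10 kb on either side, midpoints, at least 20 peak-library reads, no paralogs) it ran from 56 to 80. Genes with a passing island numbered 9 at a deposited FDR of 1e-05. Scaling moved the pooled fold most: it was 1.01 with equal totals, 2.59 without scaling, and turned below 1, to 0.801 (0.740 to 0.868), with the totals of islands under 200 reads. These scalings shift every fold alike, by -0.36, 1.00 and -0.70 on the log2 scale. Under 9 other alternatives it stayed between 1.26 and 1.39; of these, islands over a start alone (1.27) were added after the data were seen. By the exact binomial test of summed reads, 53 genes passed as higher without scaling. With 5 kb and with 10 kb on either side, 1 gene, Rpl38, passed this exact binomial test as higher (adjusted p = 0.0381 and 0.0333). Its reads were then 43 against 7. The island of Rpl38 within 1 kb held 27 against 5, and the other reads lay in islands beyond 1 kb. The shares of all protein-coding genes that passed under these settings are not given here, so these counts have no background to be read against. No gene passed as lower under the 5 alternatives run. No paired analysis was possible because each group has 1 library and the columns name no sample, and no replicate could be left out. A median of 9 control-library reads per island limits each single fold.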
